A study of Mus musculus with 4 samples.

Results

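The cells described here are 1074 cells of mouse embryoid bodies that carried a set of transcripts known from mesothelium and epicardium, out of 13808 kept cells and 14411 cell barcodes in the series. A kept barcode had at least 500 detected genes and at most 15% of its unique molecular identifiers (UMIs, each standing for 1 captured RNA molecule) from mitochondrially encoded genes. A kept cell was counted in if it had at least 1 UMI in 4 or more of 7 genes (Upk3b, Wt1, Msln, Upk1b, Aldh1a2, Lrrn4 and Muc16), fewer than 10 UMIs of Dcn and Lum per 10000 UMIs, and fewer than 50 UMIs of Acta2, Tagln, Actg2 and Cnn1 per 10000. These measured values chose the cells, so the levels of those genes are a description and support nothing. Upk3b and Upk1b transcripts were seen in nearly all of the chosen cells, which are called Upk3b/Upk1b cells below.

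Mesothelium is the thin epithelial sheet that lines the body cavities and covers the organs in them, and epicardium is its counterpart on the heart. Both come from the coelomic lining of the embryo, keep keratins and membrane mucins as epithelia do, and can give rise to fibroblasts and smooth muscle by epithelial to mesenchymal transition. The transcription factor gene Wt1 and the retinoic acid synthesis gene Aldh1a2 are classic markers of this lining, and Upk3b is known as a mesothelial marker. When oxygen is short, hypoxia-inducible factor (HIF) escapes destruction by prolyl hydroxylases and switches on genes of glucose uptake, glycolysis, angiogenesis and its own feedback.

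The R1 mouse embryonic stem cell line was differentiated as embryoid bodies, floating aggregates that form many cell types, which were dissociated with Accumax and measured as 4 droplet libraries of single-cell RNA, 1 per condition. The conditions were 16 h of hypoxia after 7.33 days of normoxia (day 8), normoxia throughout to day 8, 48 h of hypoxia after 8 days of normoxia (day 10), and normoxia throughout to day 10. No source used here gives the oxygen level. With 1 library per condition no difference below has a replicate check, library and condition cannot be told apart, and no test was made. All intervals are at 95% and cover counting error only.

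The 4 libraries held 63117306 to 85379390 UMIs, and the Upk3b/Upk1b cells in them held 10411274 UMIs in hypoxia and 11242885 in normoxia at day 8, and 5232062 in hypoxia and 11054130 in normoxia at day 10. Because the rule asks for several genes to be seen in 1 cell, it favours deeply sampled cells. The chosen cells had medians of 24904 and 31134 UMIs in hypoxia and normoxia at day 8, and of 43053 and 31224 UMIs in hypoxia and normoxia at day 10. The other kept cells had medians of 18285, 22260, 12539 and 19212 UMIs in the same order, so the gap was widest in hypoxia at day 10. Between 1 and 5 barcodes were shared by any pair of libraries. Scrublet, which looks for droplets with more than 1 cell, called 0, 5, 1 and 9 kept cells in the same order of libraries, far too few to show that it worked, and 2 of these calls fell among the chosen cells. Doublets were therefore not removed, and their part in the results was not tested beyond leaving out the cells of highest score.

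Upk3b/Upk1b cells made up similar shares of both libraries at day 8 and a smaller share in hypoxia at day 10. They were 333 of 3345 kept cells, 9.96% (exact Clopper-Pearson interval 8.96% to 11.02%), after 16 h of hypoxia and 304 of 3168, 9.60% (8.59% to 10.7%), in normoxia at day 8. At day 10 they were 115 of 4616, 2.49% (2.06% to 2.98%), after 48 h of hypoxia and 322 of 2679, 12.02% (10.8% to 13.3%), in normoxia. The hypoxic share at day 10 thus lay below the other 3, and its interval did not overlap theirs. A lower share and fewer UMIs per cell of the rule's genes cannot be told apart with this rule.

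The shares depended on depth. With every cell thinned at random to 15000 UMIs and shallower cells left out, the share was 9.31% (8.15% to 10.6%) in hypoxia and 6.36% (5.47% to 7.36%) in normoxia at day 8. It was 1.72% (1.18% to 2.41%) in hypoxia and 12.4% (11.01% to 13.9%) in normoxia at day 10. Thinning to 5000 UMIs left 41 of 3179 cells (1.29%) in hypoxia and 22 of 3098 (0.710%) in normoxia at day 8. It left 0 of 3997 cells in hypoxia at day 10, which allows a share of up to 0.0751%, and 78 of 2517 (3.099%) in normoxia. Among unthinned cells of 20000 to 40000 UMIs the share was 13.3% (11.4% to 15.4%) in hypoxia and 11.6% (10.0% to 13.3%) in normoxia at day 8. In the same range of depth it was 5.12% (3.75% to 6.81%) in hypoxia and 18.8% (16.6% to 21.2%) in normoxia at day 10. The low share in hypoxia at day 10 was present at each of these depths. At day 8 the hypoxic share was the higher one at each of them, by a margin that depended on the depth. Of the 115 cells in hypoxia at day 10, 66 had more than 3 times their library's median UMIs, and without cells that deep the share there was 1.15%.

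**Figure D1:**
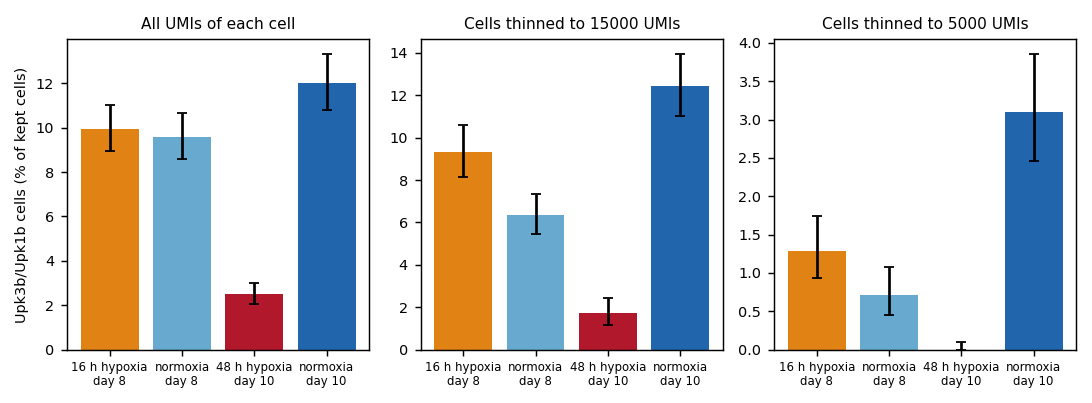
Share of kept cells that met the rule in each library (y axis, %), for cells as sequenced, thinned to 15000 UMIs and thinned to 5000 UMIs, with exact 95% binomial intervals as bars. The share in 48 h hypoxia at day 10 is the lowest in each panel, at 2.49%, 1.72% and 0.

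The 7 markers of the rule were not equally common. On the mm10 assembly Upk3b (ENSMUSG00000042985) lies on chromosome 5 from 136038496 to 136046487, Upk1b (ENSMUSG00000049436) on chromosome 16 from 38773184 to 38800328, and Wt1 (ENSMUSG00000016458) on chromosome 2 from 105126529 to 105173616. Lrrn4 (ENSMUSG00000043110) lies on chromosome 2 from 132868305 to 132880891 and Muc16 (ENSMUSG00000109564) on chromosome 9 from 18495455 to 18674530. The commonest combination was Upk3b, Wt1, Upk1b and Lrrn4 in 348 cells (32.4%), followed by the same 4 with Muc16 in 334 (31.1%). Cells with Muc16 in place of Lrrn4 numbered 97 (9.03%), and cells with all markers except Msln 93 (8.66%).

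Upk3b, which encodes a uroplakin of the urothelial plaque also made by mesothelium, had 293 CPM (UMIs of the gene scaled to a fixed total of UMIs over the summed cells) in hypoxia and 228 CPM in normoxia at day 8. At day 10 it had 121 CPM in hypoxia and 314 CPM in normoxia. Wt1, a zinc-finger transcription factor of the coelomic lining, kidney and gonad, had 136 and 134 CPM in hypoxia and normoxia at day 8, against 84.9 and 222 CPM in hypoxia and normoxia at day 10. These 2 levels were lowest in the hypoxic cells of day 10, and so were those of the uroplakin gene Upk1b, at 199 CPM in hypoxia and 153 CPM in normoxia at day 8 and 85.6 CPM in hypoxia and 147 CPM in normoxia at day 10. Lrrn4, a leucine-rich repeat membrane protein gene, had 97.8 and 93.4 CPM in hypoxia and normoxia at day 8, and 31.4 and 96.1 CPM in hypoxia and normoxia at day 10. Muc16, the gene of the membrane mucin CA125, had 49.0 and 39.5 CPM in hypoxia and normoxia at day 8, and 7.26 and 110 CPM in hypoxia and normoxia at day 10.

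Aldh1a2 and Msln were sparse. Aldh1a2, the enzyme gene of retinoic acid synthesis, was seen in 9.01% and 8.22% of the chosen cells in hypoxia and normoxia at day 8, and in 17.4% and 39.4% in hypoxia and normoxia at day 10. Msln, which encodes mesothelin, was seen in 2 of 333 cells in hypoxia and 2 of 304 in normoxia at day 8, and in 27.0% of cells in hypoxia and 11.5% in normoxia at day 10. Mesothelin, a defining product of mature mesothelium, was thus nearly absent from these cells at day 8.

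The rule's genes were not confined to the chosen cells. Upk3b had at least 1 UMI in 37.2%, 32.4%, 19.6% and 34.0% of the other kept cells in hypoxia and normoxia at day 8 and hypoxia and normoxia at day 10. Wt1 had one in 46.5%, 38.2%, 29.4% and 51.2% of them in that order. In cells with at least 4 of 13 macrophage markers, which should lack these genes and here measure free RNA, Upk3b was seen in 2.94%, 4%, 3.77% and 5.79% at median depths of 24301, 37929, 13785 and 20698 UMIs. These were only 34, 50, 106 and 190 cells, so the shares are rough. Thinned to 5000 UMIs, Upk3b was still seen in 21.0%, 15.8%, 8.68% and 22.1% of the other kept cells, against 2.94%, 2.00%, 0.980% and 2.94% of the macrophage cells. The thinned macrophage cells numbered 34, 50, 102 and 170. Cells just under the rule, with 3 of the 7 markers and within both bounds, numbered 221 and 187 in hypoxia and normoxia at day 8, and 167 and 103 in hypoxia and normoxia at day 10. The summed level of the 7 genes was 6.40, 5.12, 3.101 and 6.81 UMIs per 10000 in cells with exactly 4 markers in that order, against 4.61, 3.43, 2.48 and 4.49 UMIs per 10000 in those with 3. These are the genes the rule used, so the step between them is a description.

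**Figure D2:**
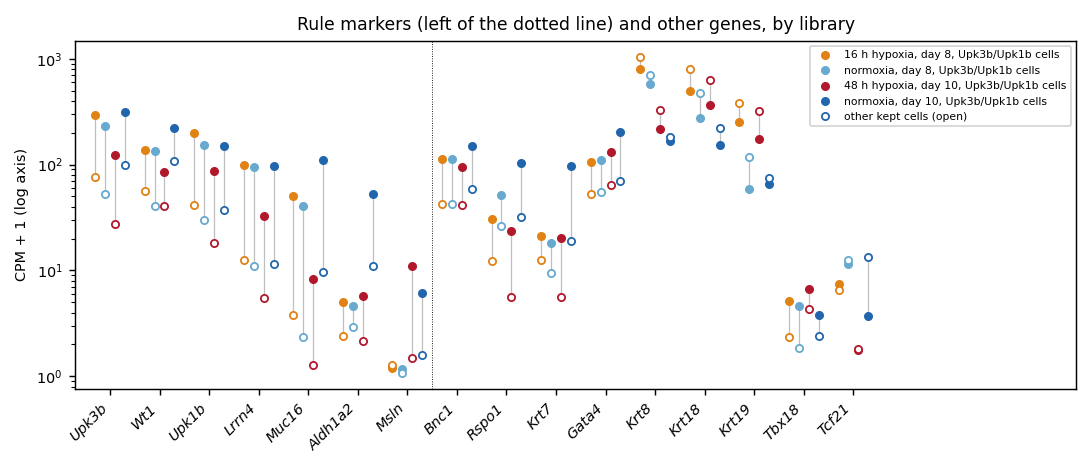
Level of the 7 rule markers (left of the dotted line) and of 9 other genes in Upk3b/Upk1b cells (filled points) and other kept cells (open points) of each library, as CPM + 1 on a log axis. Bnc1, Rspo1, Krt7 and Gata4 are higher in Upk3b/Upk1b cells of every library, and Krt8, Krt18 and Krt19 are lower.

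Genes of mesothelium that the rule did not use were checked next. Of 20 such genes, 13 averaged 5 CPM or more in the chosen cells of the 4 libraries, and 8 of these 13 were at least 1.5-fold higher than in the other kept cells, averaged over libraries, and 2 lower. Among all 10394 genes at that level 5.12% were that much higher and 3.71% lower. The other cells hold many types, so these ratios describe the chosen cells and test nothing. The median log2 ratio of CPM + 1 over the list was 0.98.

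Bnc1, a basonuclin transcription factor gene of mesothelium and other epithelia, had 112 and 113 CPM in Upk3b/Upk1b cells in hypoxia and normoxia at day 8, against 41.3 and 41.4 CPM in the other cells. At day 10 it had 92.9 and 148 CPM in Upk3b/Upk1b cells in hypoxia and normoxia, against 40.9 and 57.9 CPM in the other cells. Rspo1, which encodes an enhancer of Wnt signalling, had 29.4, 51.1, 22.6 and 103 CPM in the same order of libraries, against 11.2, 25.2, 4.64 and 30.6 CPM in the other cells. Both were higher in the chosen cells of every library. The keratin gene Krt7 had 19.98, 17.2, 19.3 and 95.8 CPM in Upk3b/Upk1b cells, against 11.6, 8.43, 4.67 and 17.96 CPM in the other cells, with its largest gap in normoxia at day 10. Efemp1, a gene for an extracellular glycoprotein, had a mean log2 ratio of 1.48 against the other cells, the complement gene C3 1.32, and Ezr, which encodes the membrane linker ezrin, 1.01.

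The simple-epithelial keratins went the other way. Krt18 had 499, 275, 364 and 151 CPM in Upk3b/Upk1b cells, against 805, 472, 631 and 221 CPM in the other cells. Krt8 had 805, 578, 214 and 166 CPM in Upk3b/Upk1b cells, against 1048, 695, 328 and 182 CPM in the other cells. Krt19 likewise was lower in the chosen cells of all 4 libraries, with log2 ratios from -1.01 to -0.17. The other kept cells included types that also make these keratins.

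Transcription factors of epicardium and coelom did not lean in 1 direction as a list. Of 15 measured, 3 stood at least 1.5-fold higher and 3 lower than in the other cells (median log2 ratio -0.07). Over all 10394 genes the shares were 5.12% higher and 3.71% lower. Gata4, a cardiac and coelomic factor, was higher at 106, 110, 132 and 200 CPM in Upk3b/Upk1b cells, against 52.1, 54.5, 63.1 and 69.5 CPM in the other cells. Osr1, a factor of intermediate and lateral mesoderm, had a mean log2 ratio of 1.47, and Foxf1, a factor of splanchnic mesenchyme, -1.81. The epicardial factor genes Tbx18 and Tcf21 were low. Tbx18 had 4.13, 3.65, 5.73 and 2.80 CPM and was seen in 4.97% to 16.5% of the chosen cells. Tcf21 had 6.44, 10.4, 0.765 and 2.71 CPM and was seen in 13.8%, 24.7%, 3.48% and 6.52% of the chosen cells, against 8.96%, 18.1%, 1.18% and 16.5% of the other cells. Tbx18 was nevertheless higher than in the other cells (mean log2 ratio 0.94). Outside the rule, Bnc1, Rspo1 and Krt7 were thus higher than in the other cells of every library, and Tcf21 was not. Krt8, Krt18 and Krt19 were lower in every library. Nkain4, another gene of the mesothelial list, was higher in none, with log2 ratios from -0.95 to -0.03. By these genes outside the rule the label was met in part. Msln, a gene of the rule, was nearly absent at day 8, which is a description only. The cells are named by Upk3b and Upk1b, genes of the rule that nearly all of them carried.

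Among the 6661 genes that averaged 20 CPM or more, 27 (0.405%) were at least 2-fold higher in Upk3b/Upk1b cells in each of the 4 libraries and 11 (0.165%) at least 2-fold lower. Megf6, which encodes a protein of epidermal growth factor-like repeats, led the genes outside the rule, with 65.4, 53.8, 44.3 and 174 CPM in Upk3b/Upk1b cells, against 9.76, 8.92, 9.23 and 42.9 CPM in the other cells, a mean log2 ratio of 2.31. The potassium channel gene Kcnh7 followed, with 480, 245, 116 and 772 CPM in Upk3b/Upk1b cells, against 92.3, 43.6, 30.5 and 144 CPM in the other cells (mean log2 ratio 2.28). Kcnab1, a gene for a beta subunit of potassium channels, had a mean log2 ratio of 2.25 and ranged from 1.5 in hypoxia to 3.22 in normoxia at day 10. Only genes with the same direction in the 4 libraries were ranked, so that agreement was fixed by the choice of genes.

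Several of the next genes act on the matrix around the cell. Thsd4, a microfibril-associated matrix gene, had a mean log2 ratio of 2.03. Sulf1, whose product trims sulfates from heparan sulfate, had 1.80, Hs6st3, whose product adds them, 1.63, and Cemip, which takes part in breaking down hyaluronan, 1.64. The inactive phospholipase D gene Pld5 had 1.99, the endocytic receptor gene Lrp2 1.84, the protocadherin gene Pcdh15 1.74, the chemokine-like gene Tafa2 1.6 and the kinase gene Stk26 1.6. Cemip was the most uneven of them, with log2 ratios from 0.59 in normoxia at day 8 to 2.68 in normoxia at day 10. Against cells rich in Dcn and Lum the mean log2 ratio of Cemip was 2.61, and against cells rich in contractile genes 0.33, so this gene did not separate the chosen cells from contractile cells.

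The lowest genes outside the rule included globins, typical of red cells. The embryonic globin genes Hba-x and Hbb-y had mean log2 ratios of -4.33 and -4.23, the adult alpha globin gene Hba-a1 -3.28, and the retinol carrier gene Rbp4, typical of yolk sac endoderm, -4.05. Igfbp7, a gene for a secreted binding protein of vascular and other cells, had -2.54, the matrix proteoglycan gene Vcan -2.35, the netrin receptor gene Unc5c -1.99 and the metallothionein gene Mt1 -1.52. Summed over 12 gut endoderm markers the Upk3b/Upk1b cells held 3.53 to 97.5 CPM across libraries, against 17.0 to 403 CPM in the other cells. Summed over 13 macrophage markers they held 49.9 CPM, against 48.3 CPM in the other cells, in hypoxia at day 8, and 10.5 to 49.5 CPM, against 108 to 723 CPM, in the remaining libraries. Summed over 12 endothelial markers they held 239 and 359 CPM in hypoxia and normoxia at day 8, against 254 and 263 CPM in the other cells. At day 10 they held 96.1 and 225 CPM in hypoxia and normoxia, against 58.0 and 227 CPM. They were thus not higher in every library, and the part of cells of these types in the results was not tested. The epithelial cadherin gene Cdh1 had 0.576, 6.85, 2.68 and 0.362 CPM and Epcam 1.35, 9.34, 0.956 and 1.72 CPM, so markers of gut-type epithelium were low but not at 0.

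**Figure D3:**
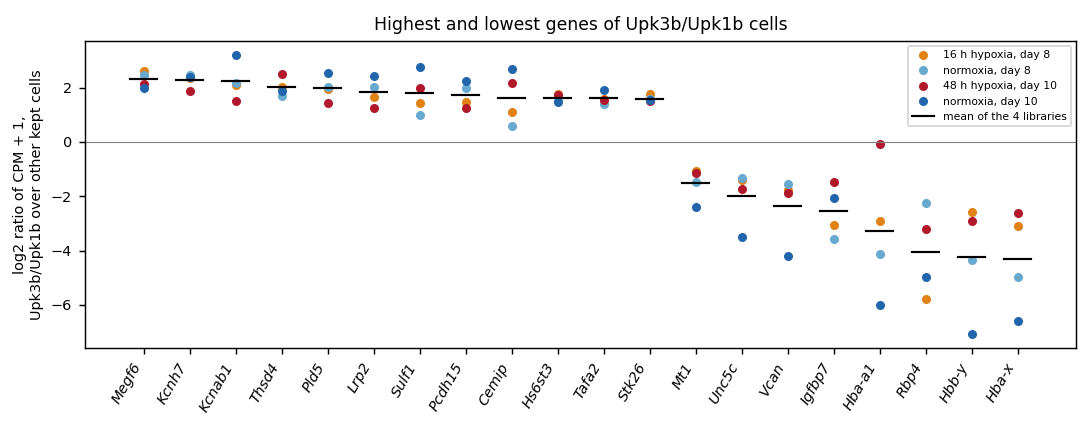
Log2 ratio of CPM + 1 in Upk3b/Upk1b cells over other kept cells (y axis) for the 12 highest and 8 lowest genes by the naming rule. Points are the 4 libraries and bars their mean, which runs from 2.31 for Megf6 to -4.33 for Hba-x.

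For scale, 5.12% of 10394 genes were at least 1.5-fold higher than in the other cells and 3.71% lower. Basement membrane genes were uneven: 4 of 24 measured genes of matrix and basement membrane were that much higher and 3 lower. The nidogen gene Nid2 had 363, 264, 423 and 358 CPM in Upk3b/Upk1b cells, against 175, 133, 199 and 173 CPM in the other cells, the steadiest ratio among them. Fras1, an epithelial basement membrane gene, had a mean log2 ratio of 1.56 and Npnt, the gene of the integrin ligand nephronectin, 1.09. The collagen genes Col6a3 and Col4a1 had -1.55 and -1.25. Of 23 measured epicardial signals and receptors, 5 were that much higher and 5 lower (median log2 ratio -0.22). Among the higher ones, the semaphorin gene Sema3d had 1.90 and the fibroblast growth factor gene Fgf2 1.81. Genes of epithelial to mesenchymal transition showed 0 of 19 higher and 3 lower, with Zeb2 and Snai2, which encode repressors of epithelial genes, at -0.89 and -0.87. The other cells include those rich in Dcn and Lum or in contractile genes, which the rule kept out of the chosen cells. The ratios of matrix and transition genes are therefore a description. In the retinoic acid pathway outside the rule, the dehydrogenase gene Aldh1a1 had 1.58 and the receptor gene Rarb -1.33.

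Cell cycle transcripts were higher in the chosen cells. Among all 10394 genes 5.12% were at least 1.5-fold higher than in the other cells and 3.71% lower. Of 52 genes of G2 and M phase, 37 were that much higher and none was that much lower (0), and the list's median log2 ratio was 0.71. Their summed level was 4564 CPM in Upk3b/Upk1b cells, against 3692 CPM in the other cells, in hypoxia at day 8, and 5986 against 5207 CPM in normoxia at day 8. At day 10 it was 4064 CPM in Upk3b/Upk1b cells, against 1753 CPM in the other cells, in hypoxia, and 6002 against 3661 CPM in normoxia. As a ratio the gap was widest in hypoxia at day 10. The mitotic kinesin gene Kif11 had a mean log2 ratio of 1.00, the hyaluronan receptor gene Hmmr 1.01 and the cytokinesis gene Ect2 1.05. Of 38 S phase genes, 9 were that much higher and 0 lower (median 0.46). Depth moved with this result, since the chosen cells held more UMIs than the others: between cells of 20000 to 40000 UMIs on both sides the G2 and M phase median was 0.52 and the S phase median 0.40.

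Whether the chosen cells resemble each other beyond the rule's genes was examined by finding each cell's 15 nearest cells in its library, on 20 principal components of counts thinned to 5000 UMIs, with the 13 genes of the rule left out. In hypoxia and normoxia at day 8, 45.2% and 44.3% of the neighbours of Upk3b/Upk1b cells were themselves Upk3b/Upk1b cells, which made up 10.5% and 9.81% of the thinned cells. In hypoxia and normoxia at day 10 the values were 25.9% and 64.2%, against shares of 2.88% and 12.8%. Neighbours of the same class were thus 4.31, 4.52, 8.99 and 5.02 times as frequent as the class. For cells rich in contractile genes the values in that order were 74.6%, 77.6%, 70.6% and 32.9%, or 3.58, 5.21, 1.75 and 8.13 times their share. Cells rich in Dcn and Lum gave 41.55%, 49.8%, 5.38% and 68.7%, or 2.28, 2.14, 2.59 and 1.44 times. Such enrichment was thus not particular to the chosen cells. For macrophage cells, whose own markers were not left out, 88.6% to 99.5% of neighbours were macrophage cells. Of the 115 chosen cells in hypoxia at day 10, 13 had no Upk3b/Upk1b cell among their neighbours.

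Within the class, cells with more markers had other levels of some genes. In normoxia at day 10, cells with 4, 5 and at least 6 markers held 50.8, 84.1 and 141 CPM of Krt7, 138, 173 and 275 CPM of Gata4, and 130, 122 and 77.8 CPM of the fibroblast gene Lum. The fibroblast gene Dcn had 349, 394 and 388 CPM in the same cells and so did not follow Lum. The rule bounded the sum of Dcn and Lum, so their levels are a description. The median UMIs of these cells were 26572, 31224 and 36450, so depth rose with the number of markers. In normoxia at day 8, cells with 4 and 5 markers held 12.9 and 19.9 CPM of Krt7 and 258 and 206 CPM of Lum. In hypoxia the order of Krt7 was not the same: cells with 4, 5 and at least 6 markers held 17.8, 22.9 and 16.3 CPM of Krt7 at day 8, and 20.3, 13.5 and 32.5 CPM at day 10, where the last value rests on 6 cells and 10 UMIs. Gata4 in these hypoxic cells rose with marker number at day 8 (90.7, 108 and 195 CPM) but not at day 10 (137, 118 and 127 CPM).

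The first comparison of conditions asked how transcripts of Upk3b/Upk1b cells differed after 16 h of hypoxia at day 8. HIF targets and glycolysis enzymes were higher in hypoxia, and mitochondrially encoded and DNA replication genes lower. Of 6661 genes, 164 (2.46%) were at least 2-fold higher and 116 (1.74%) at least 2-fold lower. The median of all genes was -0.07 on the log2 scale, and 0.08 when libraries were scaled by edgeR's trimmed mean of M values (TMM), which gave 226 higher and 58 lower. Of the genes past 2-fold, 58.6% were higher as first scaled, 79.6% with TMM and 68.6% with ratios centred on the median.

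Of 35 measured HIF targets other than glycolysis enzymes, 33 were 1.5-fold or more higher in hypoxia at day 8 and 0 lower, where 7.07% of 10394 genes were that much higher and 13.2% that much lower. The median log2 ratio was 2.19, and 1.97 in the other kept cells. Egln3, which encodes a prolyl hydroxylase that marks HIF for destruction, had the highest log2 ratio at this age among the 6661 genes. It was at 50.4 CPM in hypoxia, against 2.05 CPM in normoxia, a log2 ratio of 4.08 (interval of the plain ratio, without the added 1 CPM, 4.02 to 5.29). In the other cells Egln3 was at 64.0 CPM in hypoxia, against 8.03 CPM in normoxia, a log2 ratio of 2.85. Its level in hypoxia was thus no higher in Upk3b/Upk1b cells than in the others, and its level in normoxia was lower. Ndrg1, a stress-response gene, had 346 CPM in hypoxia, against 37.9 CPM in normoxia, a log2 ratio of 3.16. Ero1l, for disulfide bond formation, had 343 CPM in hypoxia, against 37.4 CPM in normoxia (3.16). The angiogenic growth factor gene Vegfa had 87.2 CPM in hypoxia, against 18.9 CPM in normoxia (2.15), and the mitophagy receptor gene Bnip3 277 CPM in hypoxia, against 52.1 CPM in normoxia (2.39). The glucose transporter gene Slc2a1 had the smallest of these log2 ratios, with 714 CPM in hypoxia and 300 CPM in normoxia (1.25).

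Genes over 4-fold higher in hypoxia at both ages included Egln3, Pgk1 and P4ha2, and also Ndrg1, Tmem45a, Vegfa, Ero1l, Pfkp, Ier3 and C3. Pgk1 encodes phosphoglycerate kinase of glycolysis, and P4ha2 a subunit of collagen prolyl 4-hydroxylase. The sequence before the start is shown for Egln3, Pgk1 and P4ha2 only, as examples that give no rate of matches among such genes. Each is the 250 bases before the annotated start in RefSeq (GRCm38.p6), read on the gene's own strand, at chr12:54203875-54204124 (minus strand), chrX:106186850-106187099 (plus strand) and chr11:54100674-54100923 (plus strand). Capitals mark the core letters of the HIF response element, ACGTG or GCGTG, on either strand (on the opposite strand they read CACGT or CACGC, and the 2 forms can overlap).
Egln3: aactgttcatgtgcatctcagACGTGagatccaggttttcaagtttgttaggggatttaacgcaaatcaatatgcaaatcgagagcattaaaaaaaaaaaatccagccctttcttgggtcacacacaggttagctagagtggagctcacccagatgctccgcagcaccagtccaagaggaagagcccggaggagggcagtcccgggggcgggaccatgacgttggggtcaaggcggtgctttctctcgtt
Pgk1: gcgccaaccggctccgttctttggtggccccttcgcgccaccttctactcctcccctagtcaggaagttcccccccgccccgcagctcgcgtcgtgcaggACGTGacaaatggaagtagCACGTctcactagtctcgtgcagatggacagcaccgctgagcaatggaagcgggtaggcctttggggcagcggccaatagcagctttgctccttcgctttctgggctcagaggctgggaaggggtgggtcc
P4ha2: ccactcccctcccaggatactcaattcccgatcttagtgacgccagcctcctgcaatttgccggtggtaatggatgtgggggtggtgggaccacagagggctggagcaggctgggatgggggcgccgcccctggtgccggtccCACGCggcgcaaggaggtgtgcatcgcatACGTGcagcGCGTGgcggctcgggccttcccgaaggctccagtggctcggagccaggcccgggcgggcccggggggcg
The windows held 1, 2 and 3 such matches in the order printed. Of 32851 promoters of this length in the same table, 12679 (38.6%) held at least 1, so a match describes the letters and shows no binding.

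Glycolysis enzymes were higher as well. Of 18 enzymes 14 were at least 1.5-fold higher in hypoxia at day 8 and 1 lower (median log2 ratio 1.58, and 1.56 in the other cells). Among all 10394 genes 7.07% were that much higher and 13.2% lower. Pgk1 had 1976 CPM in hypoxia, against 329 CPM in normoxia (2.58). P4ha2, a HIF target that is not one of these enzymes, had 901 CPM in hypoxia, against 157 CPM in normoxia (2.51). The aldolase gene Aldoc had 67.04 CPM in hypoxia, against 8.27 CPM in normoxia (2.88), the phosphofructokinase gene Pfkp had a log2 ratio of 2.43 and the lactate dehydrogenase gene Ldha 1.90. Bpgm, of the side path to bisphosphoglycerate, was the 1 lower enzyme (-1.04).

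The highest named genes outside these lists at day 8 were of mixed kinds. The protease inhibitor gene A2m had 69.3 CPM in hypoxia, against 4.63 CPM in normoxia (3.64). Ier3, a stress-response gene, had 99.4 CPM in hypoxia, against 9.52 CPM in normoxia (3.25), and G0s2, which encodes an inhibitor of lipolysis, 180 CPM in hypoxia, against 18.9 CPM in normoxia (3.19). The class I histocompatibility gene H2-K1 had 74.3 CPM in hypoxia, against 7.38 CPM in normoxia (3.17), and the glycogen synthase gene Gys1 136 CPM in hypoxia, against 16.5 CPM in normoxia (2.97). Each of these was also higher in the other cells, with log2 ratios from 2.25 to 2.81. Tmem45a, a transmembrane protein gene, had a log2 ratio of 3.08.

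Among genes lower in hypoxia at day 8, the sterol pathway genes Insig1 and Hmgcs1 differed more in Upk3b/Upk1b cells than elsewhere. Insig1, which encodes the anchor that holds back sterol synthesis, had 18.3 CPM in hypoxia, against 58.5 CPM in normoxia (-1.63), while the other cells gave -0.39. Hmgcs1, of the cholesterol pathway, had 105 CPM in hypoxia, against 224 CPM in normoxia (-1.09), while the other cells gave -0.16. Between conditions and classes these are 4 pools of cells, and the difference of the ratios was not tested. The polyamine enzyme gene Odc1 had 70.1 CPM in hypoxia, against 203 CPM in normoxia (-1.52), and the nucleolar helicase gene Ddx21 22.6 CPM in hypoxia, against 77.4 CPM in normoxia (-1.73). Shisa4, Pcp4, Arc and Jpt2 had log2 ratios of -1.87, -1.91, -1.44 and -1.40. Rbp4 gave the lowest value among the 6661 genes, with 6.63 CPM in hypoxia, against 94.3 CPM in normoxia (-3.64), but 1 cell held 42.2% of its 1060 UMIs among the normoxic cells.

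Of 13 mitochondrially encoded genes, 11 were at least 1.5-fold lower in hypoxia at day 8 and 0 higher (median log2 ratio -1.49, and -1.09 in the other cells). Among all 10394 genes 13.2% were that much lower and 7.07% higher. The complex I subunit gene mt-Nd3 had 119 CPM in hypoxia, against 1187 CPM in normoxia (-3.31), and the cytochrome oxidase gene mt-Co1 4129 CPM in hypoxia, against 5356 CPM in normoxia (-0.38), so the subunits differed widely. In the S phase list 30 of 38 were 1.5-fold or more below normoxia and 0 above it (median -0.87, and -0.90 in the other cells). The ribonucleotide reductase gene Rrm2 had 16.0 CPM in hypoxia, against 53.4 CPM in normoxia (-1.67), and Uhrf1, which maintains DNA methylation at replication, 19.2 CPM in hypoxia, against 54.2 CPM in normoxia (-1.45). Of 52 genes of G2 and M phase 10 were lower and 1 higher (median -0.36), but in cells of 20000 to 40000 UMIs the median was 0.03.

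Of 13 mesothelial genes outside the rule, 4 were higher and 2 lower in hypoxia at day 8, where 7.07% of all genes were that much higher and 13.2% lower, with the keratin gene Krt19 at 250 CPM in hypoxia, against 57.2 CPM in normoxia (2.11; 1.70 in the other cells). C3 had 8.07 CPM in hypoxia, against 1.25 CPM in normoxia (2.01), and Efemp1 15.2 CPM in hypoxia, against 33.4 CPM in normoxia (-1.09). Of 15 epicardial and coelomic factors 0 were higher and 2 lower, with Foxf1 at -1.14, and the list's median was -0.07, or 0.09 with TMM. Genes of the integrated stress response gave 4 higher and 4 lower of 19.

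The second comparison was 48 h of hypoxia against normoxia at day 10. The number of genes that differed was larger, and most were lower in hypoxia: 366 of 6661 (5.49%) were at least 2-fold higher and 1225 (18.4%) at least 2-fold lower. How many were lower depended on scaling. The median of all genes was -0.25 on the log2 scale and 0.07 with TMM, which gave 785 higher and 754 lower. Of the genes past 2-fold, 23.0% were higher as first scaled, 51.0% with TMM and 44.5% with centred ratios, so ratios near the shift between -0.25 and 0.07 carry no direction. The hypoxic side rests on 115 cells of greater depth than the rest of their library. With only cells of 20000 to 40000 UMIs (44 in hypoxia and 211 in normoxia) the counts were 381 higher and 1205 lower.

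Of the same 35 HIF targets, 30 were 1.5-fold or more higher in hypoxia at day 10 and 1 lower, where 13.7% of 10394 genes were that much higher and 38.7% lower. Their median log2 ratio was 1.49, and 1.16 in the other cells. Egln3 was again far apart, at 44.7 CPM in hypoxia, against 1.81 CPM in normoxia (4.03, interval of the plain ratio 3.97 to 5.37). In the other cells it was at 67.4 CPM in hypoxia, against 13.8 CPM in normoxia (2.21). Ndrg1 had 165 CPM in hypoxia, against 25.1 CPM in normoxia (2.67), Vegfa 130 CPM in hypoxia, against 24.2 CPM in normoxia (2.37), and Slc2a1 630 CPM in hypoxia, against 171 CPM in normoxia (1.88). The adrenomedullin gene Adm had 9.17 CPM in hypoxia, against 0.452 CPM in normoxia (2.81). Of 18 glycolysis enzymes 12 were higher and 1 lower (median 0.94). Pgk1 had 1413 CPM in hypoxia, against 272 CPM in normoxia (2.38), and Ldhb, the heart-type lactate dehydrogenase gene, 32.1 CPM in hypoxia, against 122 CPM in normoxia (-1.90). P4ha2, outside the glycolysis list, had 347 CPM in hypoxia, against 69.4 CPM in normoxia (2.31). Aldoc, among the highest at day 8, was at 12.6 CPM in hypoxia, against 19.1 CPM in normoxia (-0.56), at day 10.

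Other genes with high ratios at day 10 included those of immunity and stress. C3, of the complement cascade, had 81.4 CPM in hypoxia, against 6.15 CPM in normoxia (3.53; 2.38 in the other cells). Ptgs2, the gene of the prostaglandin enzyme cyclooxygenase-2, had 66.5 CPM in hypoxia, against 9.86 CPM in normoxia (2.64; 1.40 in the other cells). The paraspeckle RNA gene Neat1 had 245 CPM in hypoxia, against 31.0 CPM in normoxia (2.94), while in the other cells the log2 ratio was 1.07. The inositol transporter gene Slc5a3 had 191 CPM in hypoxia, against 16.4 CPM in normoxia (3.47), and the histone gene Hist1h4i 99.96 CPM in hypoxia, against 9.77 CPM in normoxia (3.23). The snoRNA host genes Snhg1 and Snhg12 had log2 ratios of 2.67 and 2.68. The stress gene Nupr1 had 343 CPM in hypoxia, against 43.9 CPM in normoxia (2.94).

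Stress response lists were higher in hypoxia at day 10. Of 19 stress genes (unfolded proteins and integrated response) 11 had higher and 1 had lower levels (median 0.70, and 0.58 in the other cells). Ddit3, a transcription factor gene of prolonged stress, had 99.96 CPM in hypoxia, against 16.7 CPM in normoxia (2.51), and Atf4, its upstream factor, 196 CPM in hypoxia, against 63.4 CPM in normoxia (1.61). Of 18 targets of p53, 8 were higher and 0 lower (median 0.52), with the cell cycle inhibitor gene Cdkn1a at 227 CPM in hypoxia, against 95.1 CPM in normoxia (1.25). The apoptosis genes Pmaip1 and Bbc3 had log2 ratios of 2.19 and 1.78. At day 8, by contrast, 0 of these 18 were higher in hypoxia and 7 were lower, with a median of -0.21, or -0.05 with TMM. Of all genes at day 8, 7.07% were that much higher and 13.2% lower.

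All 13 mitochondrially encoded genes were at least 1.5-fold lower in hypoxia at day 10 (median log2 ratio -2.21, and -1.96 in the other cells). The ATP synthase gene mt-Atp8 had 20.6 CPM in hypoxia, against 172 CPM in normoxia (-3.00), and mt-Nd3 167 CPM in hypoxia, against 1295 CPM in normoxia (-2.95). In the S phase list 33 of 38 were lower in hypoxia and 0 higher (median -1.40, and -1.87 in the other cells). Rrm2 had 5.54 CPM in hypoxia, against 69.4 CPM in normoxia (-3.43), and Tyms, the gene of thymidylate synthase, 16.8 CPM in hypoxia, against 105 CPM in normoxia (-2.57). Of 52 genes of G2 and M phase 22 were lower and 3 higher (median -0.53), a share lower that was near the 38.7% of all genes, and the median in the other cells was -1.37. The proliferation marker Mki67 had 44.9 CPM in hypoxia, against 190 CPM in normoxia (-2.05), in Upk3b/Upk1b cells. The topoisomerase gene Top2a had 267 CPM in hypoxia, against 468 CPM in normoxia (-0.81). Depth moved with this list too: in cells of 20000 to 40000 UMIs its median was 0.23, and Top2a and Kif11 were then higher in hypoxia, at 0.15 and 0.46.

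**Figure D4:**
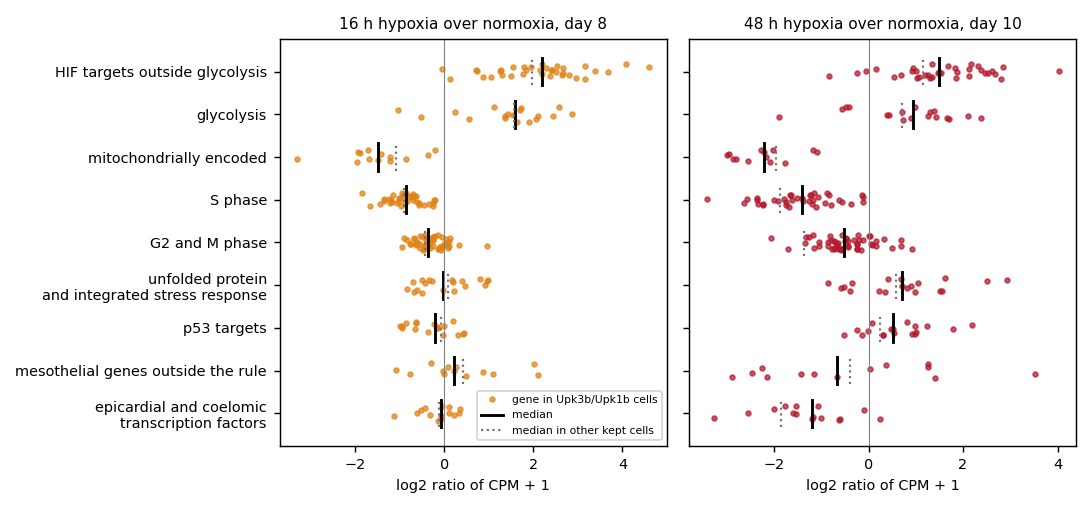
Log2 ratio of CPM + 1 in hypoxia over normoxia (x axis) in Upk3b/Upk1b cells, 1 point per measured gene of each list, at day 8 (left) and day 10 (right). Solid bars are medians over the list and dotted bars the medians in the other kept cells, and HIF targets have medians of 2.19 and 1.49.

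Most epicardial and coelomic factors were lower in hypoxia at day 10, where 38.7% of all genes were. Among 15 epicardial and coelomic factors 13 stood at least 1.5-fold below normoxia and 0 above it (median -1.21, -0.96 with TMM, and -1.84 in the other cells). Mab21l2, a developmental regulator gene of mesoderm, had 6.69 CPM in hypoxia, against 72.9 CPM in normoxia (-3.27), and Bnc2, the second basonuclin gene, 36.3 CPM in hypoxia, against 217 CPM in normoxia (-2.54). The homeobox gene Meis1 had -1.77 and the zinc-finger factor gene Gata6 -1.60. Of 13 mesothelial genes outside the rule 7 were lower and 4 higher, where 13.7% of all genes were that much higher. Efemp1 had 3.63 CPM in hypoxia, against 33.5 CPM in normoxia (-2.90), Krt7 19.3 CPM in hypoxia, against 95.8 CPM in normoxia (-2.25), and Rspo1 22.6 CPM in hypoxia, against 103 CPM in normoxia (-2.14). Their direction was opposite to that of C3. The retinoic acid receptor gene Rarb had 0.765 CPM in hypoxia, against 28.0 CPM in normoxia (-4.04).

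The lowest named genes at day 10 were largely shared with the other cells. Adam12, a metalloprotease gene, had 4.21 CPM in hypoxia, against 172 CPM in normoxia (-5.05; -5.58 in the other cells), and Nhs, a regulator of actin, 10.5 CPM in hypoxia, against 242 CPM in normoxia (-4.40; -4.38 in the other cells). Angptl7, a secreted angiopoietin-like gene, had 2 UMIs in hypoxia and 77.4 CPM in normoxia (-5.83, interval of the plain ratio -10.71 to -5.80), and Lhfpl3 3 UMIs in hypoxia and 55.2 CPM in normoxia (-5.16, interval -8.87 to -5.04). Ppp2r2b, a phosphatase subunit gene, had -4.03, Nav3 -3.98 and Dock1 -3.70. Some genes were lower in Upk3b/Upk1b cells to a greater degree than elsewhere. The transglutaminase gene Tgm2 had 2.29 CPM in hypoxia, against 60.3 CPM in normoxia (-4.22), while the other cells gave -1.23, and the troponin gene Tnnt2 5.54 CPM in hypoxia, against 87.8 CPM in normoxia (-3.76), while the other cells gave -1.60. The difference between these ratios was not tested.

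The 2 hypoxia comparisons share no library. Of the genes at least 2-fold higher, 77 were higher at both ages, 47.0% of those at day 8 and 21.0% of those at day 10. Of the genes at least 2-fold lower, 80 were lower at both ages, 69.0% of those at day 8 and 6.53% of those at day 10. Past 2-fold, 7 genes were higher in hypoxia at day 8 but lower in hypoxia at day 10, and 2 went the other way. Across the 6661 genes, the ratios in Upk3b/Upk1b cells and in the other cells of the same libraries had a Pearson correlation of 0.91 at day 8 and 0.91 at day 10, a description across genes of pools that share libraries but not depth per cell. They differed by at least 2-fold in 15 genes (0.225%) at day 8 and 186 (2.79%) at day 10.

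**Figure D5:**
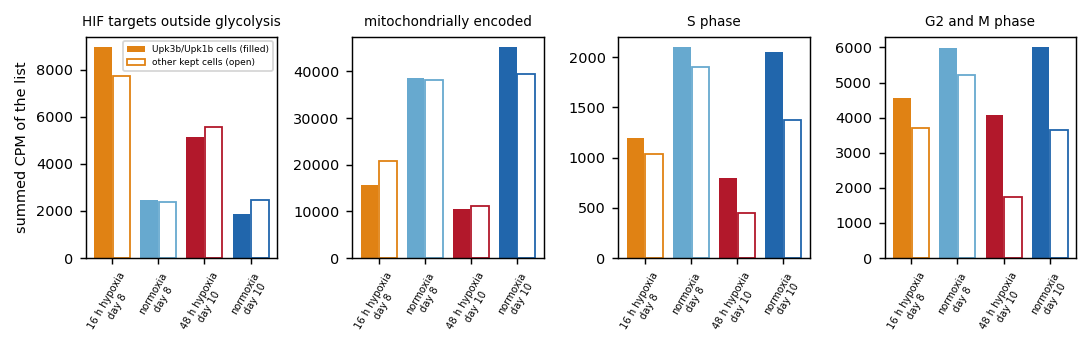
Summed CPM of 4 gene lists (y axes from 0) in Upk3b/Upk1b cells (filled bars) and other kept cells (open bars) of each library. G2 and M phase transcripts sum to 4064 CPM in Upk3b/Upk1b cells and 1753 CPM in the other cells of the 48 h hypoxia library.

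The last comparison set day 10 against day 8 in normoxia, and uses the normoxic libraries of both comparisons above. Of 6661 genes 168 (2.52%) were at least 2-fold higher at day 10 and 122 (1.83%) lower, and TMM gave 210 and 92. The mesothelial gene Krt7 was higher with age, with 95.8 CPM at day 10, against 17.2 CPM at day 8 (2.41). Aldh1a2, a gene of the rule, had 52.3 CPM at day 10, against 3.65 CPM at day 8 (3.52). Aldh1a1 had 29.7 CPM at day 10, against 3.74 CPM at day 8 (2.69), and Osr1 14.5 CPM at day 10, against 1.78 CPM at day 8 (2.48). All 4 were also above the other cells of their library at day 10, which for Aldh1a2 is a description, since the rule used it. Of 13 mesothelial genes outside the rule 6 were at least 1.5-fold higher at day 10 and 2 lower, where 7.30% of 10394 genes were that much higher and 9.70% lower. Krt8 was among the lower ones, with 166 CPM at day 10, against 578 CPM at day 8 (-1.79).

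Among other genes higher at day 10, Igfbp7 had 26.3 CPM at day 10, against 1.69 CPM at day 8 (3.35). Only 41 of 322 cells held its 291 UMIs at day 10, and 1 cell held 29.2% of them. The corepressor gene Tle5 had 170 CPM at day 10, against 25.9 CPM at day 8 (2.67, and 1.55 in the other cells). The neuregulin gene Nrg1, an epicardial signal, had 95.8 CPM at day 10, against 15.4 CPM at day 8 (2.56), while the other cells gave -0.14. The cell adhesion gene Kirrel3 had 42.9 CPM at day 10, against 6.14 CPM at day 8 (2.62; 0.51 in the other cells). Arhgap22, S100a4 and Ppp2r2b had log2 ratios of 2.71, 2.64 and 2.65.

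Some genes of mesenchyme were lower at day 10, but not fibroblast markers as a list (it holds Dcn and Lum, which the rule bounded), of which 3 of 11 were higher and 4 lower (median -0.0036). For scale, 7.30% of 10394 genes were at least 1.5-fold higher at day 10 and 9.70% lower. The matrix gene Postn had 276 CPM at day 10, against 1320 CPM at day 8 (-2.25), Snai2 13.8 CPM at day 10, against 53.01 CPM at day 8 (-1.87), and Vcan 9.50 CPM at day 10, against 73.2 CPM at day 8 (-2.82), while the other cells gave -1.17, -0.31 and -0.17. Of 19 genes of epithelial to mesenchymal transition 8 were lower and 1 higher. The teneurin gene Tenm2 had 26.2 CPM at day 10, against 257 CPM at day 8 (-3.24). The chemokine gene Cxcl12 had 17.1 CPM at day 10, against 73.3 CPM at day 8 (-2.04). The globin genes Hbb-y (-5.73), Hba-x (-5.13) and Hba-a1 (-3.81), Rbp4 (-5.28) and Pcp4 (-3.82) were the lowest named genes; a single cell held 38.3% of the Hbb-y UMIs and 42.2% of those of Rbp4 among the chosen cells in normoxia at day 8. Of 18 targets of p53, 7 were higher at day 10 and 0 lower (median 0.42). Of 52 genes of G2 and M phase 1 was higher and 0 lower (median 0.04, and -0.24 in cells of 20000 to 40000 UMIs).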

How the data were processed

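Single-cell RNA was measured in 4 droplet libraries, 1 per condition. Raw UMI counts for each gene and barcode were deposited, made by the authors with Cell Ranger 7.1.0 on mm10, per the submitters' processing notes; no source used here says if introns were counted. Of 32285 gene IDs, 32235 matched the annotation used for coordinates. The members and gene lists were chosen with earlier results of these data known.

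Counts of Upk3b/Upk1b cells were summed per library and scaled to CPM (a fixed total of UMIs), and ratios are log2 of CPM + 1. With 1 library per group no test was run. Calls were made at 2-fold over genes averaging 20 CPM or more, and at 1.5-fold over list members averaging 5 CPM or more. Intervals are exact (Poisson for levels, conditional binomial for ratios, Clopper-Pearson for shares). Software was scanpy 1.11.5 (Scrublet), scikit-learn 1.9.0 (neighbours), pandas 2.3.3 and scipy 1.17.1 with numpy 2.4.6 in Python 3.11.15, and edgeR 4.0.16 in R 4.3.3 for TMM factors only. The scripts were tested on simulated data with 200 changed genes.

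Named genes were the rule's 13 genes, 10 genes at either end of the log2 ratios for hypoxia at each age, 8 at either end with age, the 12 highest and 8 lowest mean ratios against the other kept cells, up to 5 members per list with the largest ratio, and a few preset genes. Unnamed clones, ribosomal and mitochondrial symbols were left out of the ranked sets. Ranks against the other kept cells took only genes with the same direction in all 4 libraries. Hmgcs1, mt-Co1, Cdh1 and Epcam were added after their values were seen. A few genes that the rule names are not reported here. Alternatives were other marker numbers, depths, filters, pseudocounts, scalings and doublet cuts; those on depth windows, thinning to 15000 UMIs, very deep cells and highest Scrublet scores were chosen after seeing the data.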

Additional observations from a re-analysis of the deposited data

Results flagged for a closer look

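Plcxd3, a gene for a phospholipase C-like protein, differed in opposite directions between the 2 ages in Upk3b/Upk1b cells. At day 8 it had 46.0 CPM in hypoxia, against 20.6 CPM in normoxia, a log2 ratio of 1.12. At day 10 it had 0.956 CPM (5 UMIs) in hypoxia, against 44.1 CPM in normoxia, a log2 ratio of -4.53. The other kept cells gave 0.80 and -4.47 at day 8 and day 10. The difference between the ages was not tested, as each condition is 1 library.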

How the results depend on the processing

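Shares of Upk3b/Upk1b cells, in hypoxia and normoxia at day 8 and hypoxia and normoxia at day 10, were 16.6%, 15.5%, 6.11% and 15.9% with at least 3 markers, 4.42%, 3.82%, 0.737% and 8.44% with at least 5, 14.7%, 12.8%, 3.40% and 19.7% without the bounds, and 1.29%, 0.710%, 0 and 3.099% thinned to 5000 UMIs. Thinning to 15000 UMIs gave 6.36% in normoxia at day 8 and 1.72% in hypoxia at day 10, and without cells above 3 times the median UMIs the hypoxic library of day 10 gave 1.15%. Genes 2-fold higher and lower at day 8 were 98 and 45 from 50 CPM, 428 and 739 with no filter and 942 and 851 thinned to 5000 UMIs, and those lower were 58 with TMM and 49 with a pseudocount of 10 CPM. At day 10 they were 785 and 754 with TMM, 196 and 574 from 50 CPM and 889 and 3240 with no filter, and centring gave 664 higher. Thinning to 5000 UMIs left no hypoxic cell for that comparison. With age they were 82 and 56, 522 and 780, and 895 and 600 from 50 CPM, with no filter and thinned. Against the other cells they were 16 and 6 with a pseudocount of 10 CPM and 45 and 38 thinned (3 libraries), with 5 lower from 50 CPM. Leaving out 1 library in turn, which leaves 3, gave 34 to 39 genes higher and 11 to 20 lower, with 20 lower without the hypoxic library of day 10, against 11 with all 4.

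Directions reversed in few cases, and the cause was not tested. Without the highest Scrublet scores the day 8 hypoxia ratios were -0.10 for the erythroid list and for Hba-a1, -0.091 for Hba-x and -1.18 for Hbb-y, and with at least 5 markers -0.61 for Hbb-y. Thinned to 5000 UMIs they were -0.53 for Atf4 and 0.10 for Lum, and between 20000 and 40000 UMIs 0.26 for Sema3d. At day 10 at least 5 markers gave -0.17 for the erythroid list and -0.20 for Hba-a1, cells under 3 times the median gave 0.047 for Fgf2 and 0.10 for Kif11, and the depth range gave 0.46 for Kif11 and 0.15 for Top2a. With age, at least 3 markers gave 0.035 for Col6a3, and thinning gave 0.17 for Lum, 0.0905 for Mab21l2, -0.059 for Sema3d and 0.27 for Zeb2. No paired analysis was possible because each condition is 1 library. Each result thus has counting error only, and 115 cells limit the day 10 comparison.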
